A study of Homo sapiens with 3 samples.

Results

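Of the 997 positions that the authors assigned to deoxyuridine formed by deamination of cytosine in HEK293T genomic DNA, 241 (24.2%) lie in the centromeric windows of 13 chromosomes. The windows were fixed by position alone, in Mb of GRCh38. They are 121.7 to 143.3 on chromosome 1, 91.8 to 94.1 on chromosome 2, 90.5 to 93.7 on chromosome 3, 49.0 to 51.8 on chromosome 4, 58.5 to 60.3 on chromosome 6, 43.9 to 46.0 on chromosome 8 and 43.0 to 61.0 on chromosome 9. The others are 39.6 to 42.2 on chromosome 10, 50.8 to 54.5 on chromosome 11, 34.7 to 37.3 on chromosome 12, 22.7 to 27.0 on chromosome 17, 24.4 to 27.3 on chromosome 19, 25.6 to 30.5 on chromosome 20 and 58.0 to 62.5 on chromosome X, where no listed site lay inside. The centromeres of chromosomes 5, 7, 16 and 18 are not among them.

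HEK293T cells are an established line from embryonic kidney that carries SV40 large T antigen. Their genomic DNA was lysed with 50 µg/mL tetrahydrouridine, an inhibitor of cytidine deaminases, sheared to mainly 200 to 300 bp and treated with the endonuclease APE1 to clear abasic sites already present, and this holds for all 3 libraries. In N3-C labelled libraries 1 and 2, uracil DNA glycosylase then removed uracil, 10 mM of the azide reagent N3-C reacted for 6 h at the abasic sites so made, and a biotin handle served to pull the fragments down. The input library was not labelled or pulled down, so it also lacks the glycosylase step, and the effects of glycosylase, label and pull-down cannot be told apart.

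Deoxyuridine arises in DNA when cytosine loses its amino group, and uracil DNA glycosylase followed by base excision repair normally returns it to cytosine. Left in place, it pairs as T does, so a deaminated cytosine reads as T in an ordinary library. Human centromeres are built on long arrays of alpha satellite, a repeat of short monomers in tandem, on which the CENP-A nucleosomes of the kinetochore assemble. Other satellite families flank them, and on chromosomes 1 and 9 they form the large heterochromatic blocks of the proximal long arms. Such repeats are present in many near-identical copies, and an assembly can hold fewer of them than a cell does.

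The sites were selected on reads of these same libraries. Each listed position has a deposited T percent of 20 to 49.64 in the input. Among the centromeric sites the labelled T percent was at most 0.786 of the input's in labelled library 1 and 0.790 in labelled library 2. The rise in C is therefore a property of the list and is described here without being used as evidence. Depth, strand, bases other than C and T and the neighbouring misincorporation sites were not part of the window rule, which used position alone. A floor of 20 reads in each labelled library and 40 in the input was seen over the whole list. No genome sequence or repeat annotation was used here, so whether a site lies in alpha satellite or in another repeat was not analysed, and no sequence is printed.

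Annotated genes in the windows were counted, which by itself cannot show that a site is centromeric. The windows, 77.3 Mb in all, overlap 94 RefSeq genes of any kind, of which 4 are protein coding (CWH43 on chromosome 4, SPATA31A5 on chromosome 9, and NANP and ZNF337 on chromosome 20). The chromosome 20 window alone overlaps 58 of the 94 genes, and 5 windows overlap no gene. Of the 241 sites, 1 lay in a gene, the pseudogene SLC9B1P2 on chromosome 2 (91882906 to 91931714). That site, at 91926378 on the minus strand, read C in 77.5% of the C and T reads in the input, while labelled library 1 read C in 88.2% and labelled library 2 in 84.4%. Its depth, all bases counted, was 103, 34 and 33 reads. Its gain of 8.85 points did not pass the test used below (adjusted Fisher exact p = 0.186).

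In what follows the C share is the percent of C among the reads of C or T. Where a share is given as a percent of a number of reads, or with a number of reads and an interval, those are the C and T reads alone; depth, as a median or range, counts all reads. The gain is how far the labelled libraries' mean C share lay above the input's, in percentage points. Labelled library 1 held 48.8% of the labelled reads at the 241 sites, and site by site this division spread 0.938 times as much as sampling alone gives (chi-square p = 0.746). They were counted as 1 labelled sample, and no label says that they came from separate cultures. Centromeric sites had between 43 and 6934 reads in the input (median 261), 20 to 2529 in labelled library 1 (median 43) and 20 to 2775 in labelled library 2 (median 45). Over the whole list the medians were 188, 33 and 35 reads.

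The sites were unevenly divided among the windows. Chromosome 1 held 71 (29.5%), chromosome 10 held 32, chromosome 12 held 30, chromosome 4 held 26, chromosome 9 held 22 and chromosome 11 held 20. The chromosome 2 window held 15 and that of chromosome 20 held 9. Chromosomes 3 and 17 held 5 each and chromosome 19 held 4. Chromosomes 6 and 8 held 1 each. These counts were not scaled to window length, and the windows of chromosomes 1 and 9 are by far the longest. When sites up to 100 kb apart were joined, 155 of the 241 sites (64.3%) fell into 13 stretches of 5 or more, which together span 1117 kb, while 36 sites stood alone. The fullest stretches were the one on chromosome 1 from 143185471 to 143273596 (54 sites), one on chromosome 9 from 60565803 to 60685991 (17 sites), and those on chromosome 10 from 42068665 to 42100955 (15 sites) and from 41840837 to 41855972 (11 sites). The joining distance was set after the positions had been seen.

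Listed sites were unevenly placed around the window edges. With the windows narrowed by 0.1 Mb at their edges, 182 of the 241 centromeric sites remained inside. The stretch of 54 sites on chromosome 1 ended 26.4 kb from its edge, and the stretch of 10 sites on chromosome 12 ended 34.96 kb from its edge. The outermost sites inside lay a median of 493 kb from their edge, and the first sites outside a median of 4920 kb. These medians take only the nearest site on each side of an edge and do not measure density. The outermost sites inside had a median gain of 13.7 points (7.28 to 38.1) and those first outside 13.8 points (8.08 to 27.99). Among the sites outside, the closest to an edge was at 62501259 on chromosome X, 1.26 kb beyond its window. It read C in 72.3% of the C and T reads in the input and in 93.5% and 91.3% in labelled libraries 1 and 2, a gain of 20.2 points. Next came 27371988 on chromosome 19, 72.0 kb outside, with a gain of 10.8 points. The sites closest to an edge from within were at 143273596 on chromosome 1 (26.4 kb, gain 30.3 points) and 37265038 on chromosome 12 (34.96 kb, gain 12.4 points).

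In the input the centromeric sites read C in 50.4 to 80% of C and T reads, with a median of 71.96% and quartiles of 65.9 and 77.3%. Labelled library 1 had a median of 87.1% (quartiles 81.8 and 91.3%) and labelled library 2 one of 86.7% (81.5 and 91.2%). At each of the 241 sites both labelled shares exceeded the input's, on the contrast that made the list. The median gain was 15.1 points (quartiles 11.3 and 19.3; range 5.56 to 38.1), and in the median 47.1% of the T share remained after labelling. Over all 997 listed sites the corresponding values were an input C share of 73.6%, a gain of 14.6 points and 46.4% of the T share.

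Set beside the rest of the list, the centromeric sites had a lower median input C share than the other sites and a median gain between theirs. The 260 sites in the widest gene-free intervals of chromosomes 5, 7, 16 and 18 had a median input C share of 72.3% and a gain of 16.5 points. The remaining 496 sites had 74.7% and 13.6 points. The quartiles of the gain overlapped among these sets (11.3 to 19.3 points at the centromeric sites, 12.8 to 20.2 and 10.6 to 16.8 points elsewhere). These differences were not tested, since sites are not replicates and there is 1 library without label.

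C and T reads of the pooled labelled libraries were set against the input's at each site by Fisher's exact test (two-sided), adjusted by Benjamini-Hochberg over all 997 sites, with a threshold of 0.05. It compares these libraries. Of the centromeric sites 185 of 241 passed (76.8%), where 62.1% of the whole list did. The share was 77.3% in the gene-free intervals of chromosomes 5, 7, 16 and 18 and 47.0% elsewhere. At 100 to 200 input reads it was 65.7% at the centromeric sites, 67.4% in those intervals and 45.1% elsewhere. At 400 input reads or more it was 93.3%, 90.4% and 66.7%. The list was made on the same contrast, so nothing is read from the higher share. The centromeric sites were also deeper than the whole list in the median, and the part of depth was not tested. With labelled library 2 left out, 92 of the 241 passed (25.3% of the whole list), and with labelled library 1 left out 111 passed (28.6%). Set against each other, the labelled libraries differed by the Fisher exact test at 0 of the 241 sites after adjustment (0% of the whole list), and 1 site had an unadjusted p under 0.05.

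**Figure D1:**
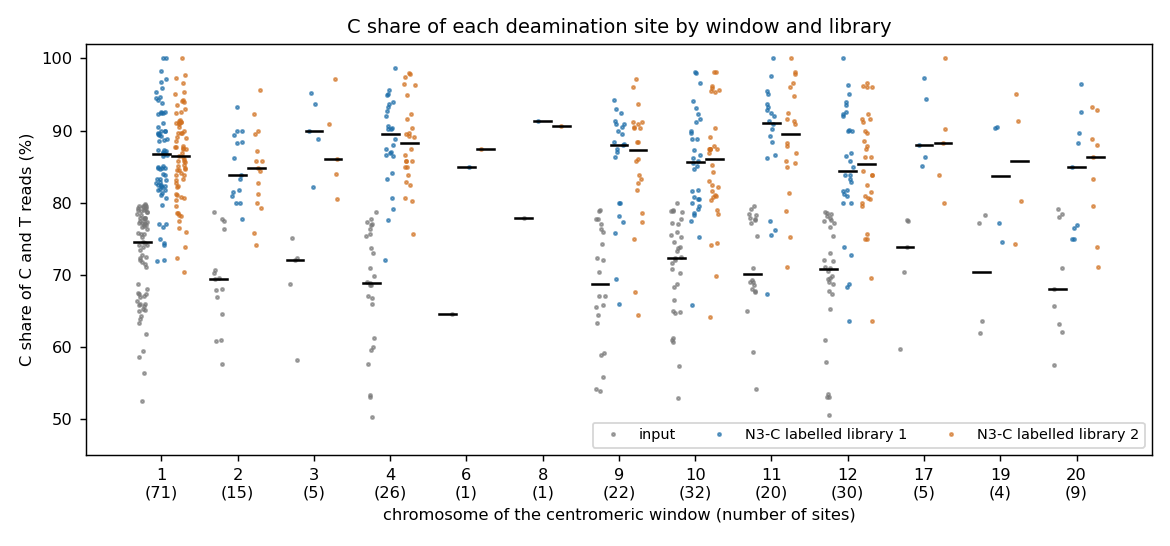
The C share of every centromeric deamination site (y axis, percent of C and T reads) is plotted by the chromosome of its window (x axis, with the number of sites), in grey for the input, blue for N3-C labelled library 1 and orange for N3-C labelled library 2. Black bars are medians over sites; the input medians lie between 64.6% and 77.9%, and every labelled median lies above 83%.

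The gain was lower at the deepest centromeric sites. At the 58 sites with the fewest labelled reads (40 to 57 over both libraries) the median gain was 15.9 points, at 58 to 85 reads it was 16.7, at 86 to 186 it was 15.3, and at the 61 deepest sites (187 to 5304) it was 11.6 points. By labelled depth the fall was thus confined to the deepest of these 4 groups. Of the shallowest group 63.8% passed the Fisher exact test and of the deepest 95.1%. By input depth the median gain fell at each step. It was 21.3 points under 100 input reads, 16.7 at 100 to 200, 15.6 at 200 to 400 and 13.1 at 400 or more. Over the same steps it fell from 20.2 to 13.1 points in the gene-free intervals of chromosomes 5, 7, 16 and 18. Elsewhere it fell from 15.9 to 10.3 points. Across the 241 sites the gain and the labelled depth had a Spearman rho of -0.311 (Pearson's r of -0.219). These points share libraries. Without the long-arm side of chromosome 1 the rho was -0.191 and the r -0.072 over 187 sites.

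**Figure D2:**
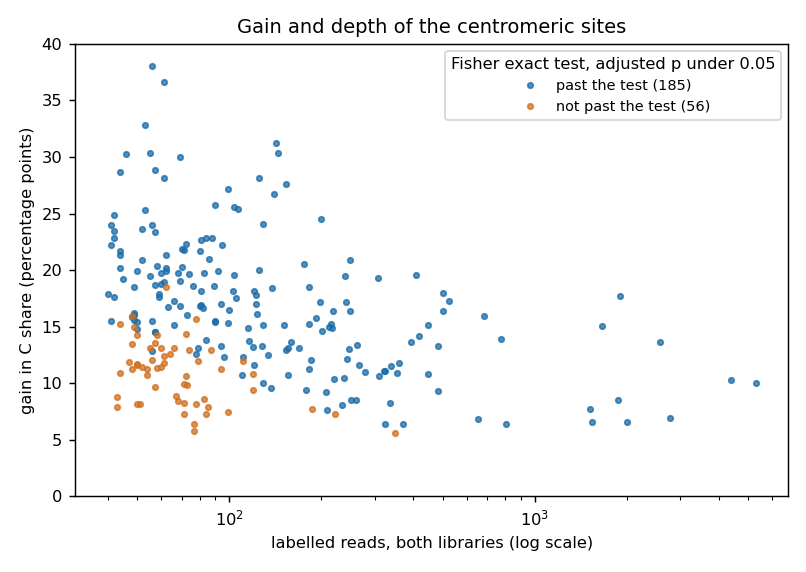
The gain in C share (y axis, percentage points) is plotted against labelled reads over both libraries (x axis, log scale) for the 241 centromeric sites, in blue for the 185 past the Fisher exact test and in orange for the 56 others. Gains above 25 points lie at sites with fewer than 200 labelled reads, and the 61 sites with 187 or more labelled reads gain 5.56 to 24.5 points.

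The long-arm side of the chromosome 1 window, next to the heterochromatic block of that arm, held 54 sites within 88.1 kb. No listed deamination site lay between it and the last site on the other side, at 125178835, a distance of 18.01 Mb that the assembly leaves largely without sequence. The 54 sites were deep, with 116 to 6934 input reads (median 723.5) and a median of 151 and 160 reads in labelled libraries 1 and 2. Their median C share was 75.7% in the input, 86.8% in library 1 and 87.2% in library 2, a gain of 11.9 points (5.56 to 30.3), against 15.5 points at the other 187 centromeric sites. Depth was higher where the gain was lower, and its part in the difference was not tested. Of the 54 sites 49 passed the Fisher exact test (62.1% of the whole list), and 35 lay on the minus strand.

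The deepest site of a window is, here and below, the one with the most labelled reads over both libraries. For all windows this was 143220438 on the minus strand, in this block. The input read C in 79.5% of 6839 reads (95% Wilson interval of the share of C and T reads, 78.6 to 80.5). Labelled library 1 read C in 89.5% (88.2 to 90.6, 2511 reads) and labelled library 2 in 89.6% (88.4 to 90.7, 2764 reads). The labelled libraries lay within each other's interval and above the input's, by 10.0 points (adjusted Fisher exact p = 4.15e-49). At 143214964, also on the minus strand, the share rose from 79.3% of 2763 reads to 92.4% of 1198 and 93.5% of 1312 reads (adjusted Fisher exact p = 1.13e-45). At 143231009 it went from 79.3% of 2259 reads to 94.6% of 853 and 94.0% of 788 reads (adjusted Fisher exact p = 2.43e-41). At 143265593 it went from 77.8% of 4984 reads to 88.8% of 2094 and 87.5% of 2232 reads (adjusted Fisher exact p = 1.14e-37). These are among the deepest sites, and their p follows the depth as well as the gain.

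The lowest gains of all the windows lay partly here too. At 143199521 the C share was 79.7% in the input (76.4 to 82.6, 659 reads), 84.8% in library 1 (78.8 to 89.4, 178 reads) and 85.6% in library 2 (79.5 to 90.1, 167 reads), a gain of 5.56 points with overlapping intervals (adjusted Fisher exact p = 0.0514). At 143207915 and 143212061 the gains were 6.37 and 6.38 points, and both passed the Fisher exact test (adjusted p = 0.0466 and 0.00216). At the other end, 143221317 read C in 52.5% in the input (46.7 to 58.3, 280 reads), 81.8% in library 1 (71.8 to 88.8, 77 reads) and 83.8% in library 2 (73.3 to 90.7, 68 reads). The gain was 30.3 points (adjusted Fisher exact p = 1.48e-08), and the labelled intervals lay above that of the input.

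**Figure D3:**
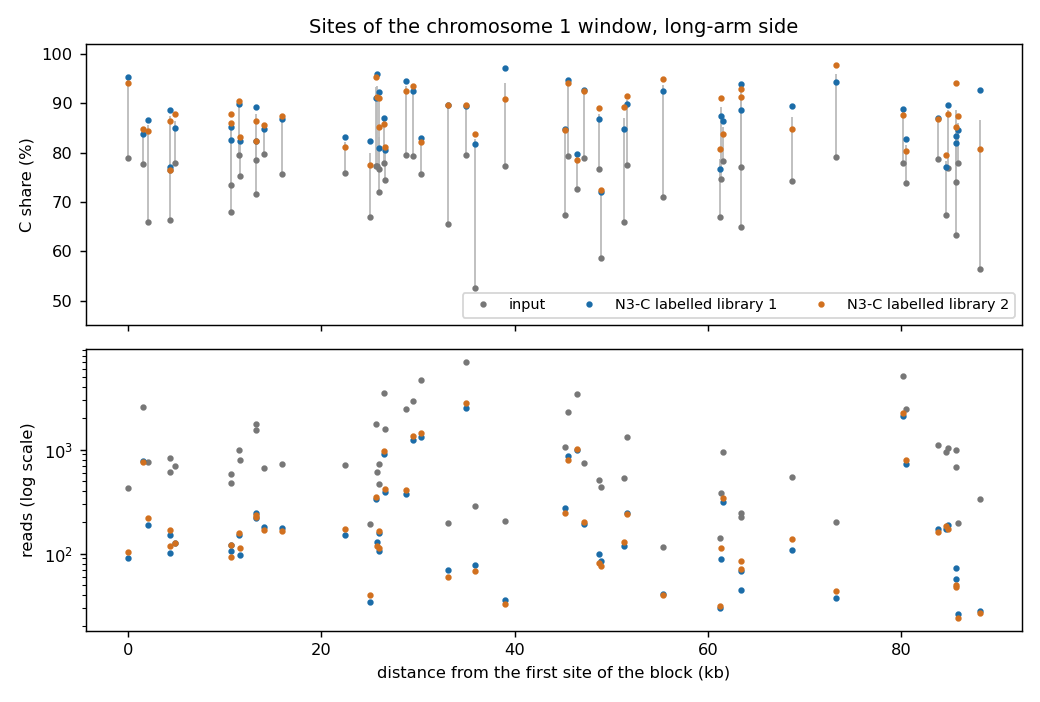
The 54 sites on the long-arm side of the chromosome 1 window are placed by their distance from the first of them (x axis, kb). The upper panel gives the C share in the input (grey), labelled library 1 (blue) and labelled library 2 (orange), with grey lines from the input to the labelled mean, and the lower panel gives the reads at each site on a log scale. The labelled points lie above the input at each site, and input reads range from 116 to 6934.

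On the other side of that distance chromosome 1 held 17 sites between 121743788 and 125178835. Here 11 passed the Fisher exact test, against 62.1% of the whole list. The last 8 of them lay within 12.5 kb, from 125166352 on, with a median of 482 input reads and a gain of 16.2 points (9.22 to 20.2). Of these, 125178835 on the plus strand had the lowest p of the list, with 72.4% C in the input (71.0 to 73.7, 4351 reads), 90.5% in library 1 (88.4 to 92.2, 932 reads) and 89.7% in library 2 (87.6 to 91.4, 958 reads). The site at 125176311 was the only centromeric site where neither labelled library held a T read. Its C share was 79.8% in the input (71.5 to 86.2, 114 reads), and the 44 labelled reads without T set a limit of 6.82% on its T share there (adjusted Fisher exact p = 0.00139). The limit covers counting error only.

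Chromosome 10 held 32 sites, 23 of them on the minus strand, with a median of 388 input reads and a gain of 15.2 points (5.73 to 25.6). Its deepest site, 42097325, read C in 72.3% of 1385 input reads (69.9 to 74.6), 87.3% of 205 reads in library 1 (82.1 to 91.2) and 87.4% of 231 reads in library 2 (82.5 to 91.1; adjusted Fisher exact p = 6.66e-10). Of the 32 sites 24 passed (62.1% of the whole list). The sites at 42079503 and 41011315 gained 5.73 and 6.37 points and did not pass (adjusted Fisher exact p = 0.376 and 0.288). Chromosome 12 held 30 sites, 15 on each strand, of which 18 passed (60%, near the 62.1% of the whole list), with a gain of 15.3 points (7.26 to 23.4). Of its sites 10 lay between 37237403 and 37265038 at the end of the window, with a gain of 13.0 points.

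Chromosome 4 had the highest median gain among the windows of 20 or more sites, 18.9 points (7.28 to 36.7), and 24 of its 26 sites passed (62.1% of the whole list). Its deepest site, 50676766, read C in 78.8% of 513 input reads (75.01 to 82.1), 98.7% of 154 reads in library 1 (95.4 to 99.6) and 97.4% of 152 reads in library 2 (93.4 to 98.97; adjusted Fisher exact p = 1.22e-15). Both labelled libraries read nearly all C there. Of the 5 largest gains in all windows, 3 were on this chromosome. The share rose from 53.1% of 196 reads to 93.8% and 85.7% at 50566961, from 50.4% of 139 reads to 80.6% and 85.7% at 51256329, and from 61.3% of 217 reads to 90.2% and 94.9% at 50555842. These sites, with gains of 36.7, 32.8 and 31.3 points, had 61, 53 and 142 labelled reads, all bases counted.

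The single largest gain, 38.1 points, was on chromosome 3 at 93020392, which was also the shallowest centromeric site in the input. It read C in 58.1% of 43 input reads (43.3 to 71.6), 95.2% of 21 reads in library 1 (77.3 to 99.2) and 97.1% of 35 reads in library 2 (85.5 to 99.5; adjusted Fisher exact p = 3.92e-05). The input's interval, on 43 reads, is the widest given here for an input share. The other 4 sites of chromosome 3 gained 12.6 to 17.2 points.

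Chromosome 11 combined modest input depth (median 140 reads) with median labelled C shares of 91.1% and 89.6%, a gain of 16.3 points (7.44 to 29.98), and 15 of its 20 sites past the test, against 62.1% of the whole list. Its deepest site, 51352899, gained 8.54 points from 79.1% of 536 input reads (adjusted Fisher exact p = 0.00847). Chromosome 2 held 15 sites, 12 on the plus strand, of which 7 passed (46.7%, below the 62.1% of the whole list), with a gain of 13.5 points (8.18 to 30.2). Its deepest, 93600260, went from 76.4% of 512 reads to 89.3% of 75 and 89.5% of 86 reads (adjusted Fisher exact p = 0.000968). On chromosome 20, 8 of 9 sites lay on the plus strand and 8 passed (62.1% of the whole list), with a gain of 15.5 points (8.73 to 17.9). At its deepest site, 28495457, the C share was 57.5% of 2219 input reads (55.4 to 59.5), 76.5% of 234 reads in library 1 (70.7 to 81.5) and 71.2% of 267 reads in library 2 (65.5 to 76.3; adjusted Fisher exact p = 3.86e-10).

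The windows with few sites were described in the same way. All 5 sites of chromosome 17 and all 4 of chromosome 19 passed the Fisher exact test (62.1% of the whole list), with median gains of 18.5 and 13.9 points. The deepest of chromosome 17, at 26885653, went from 70.4% of 729 reads to 85.1% of 208 and 83.9% of 205 reads (adjusted Fisher exact p = 1.15e-06). The deepest of chromosome 19, at 24895341, went from 62.0% of 329 reads to 74.6% of 59 and 74.3% of 74 reads (adjusted Fisher exact p = 0.0248). The one site of chromosome 6, at 58991381, rose by 21.7 points from 64.6% of 96 reads (adjusted Fisher exact p = 0.0186). The one site of chromosome 8, at 45437601, rose by 13.1 points from 77.9% of 307 reads (adjusted Fisher exact p = 0.0204).

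Chromosome 9 held 22 sites, 11 on each strand, of which 15 passed (68.2%, near the 62.1% of the whole list), with a median of 401 input reads and a gain of 14.8 points (10.9 to 28.9).

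Sites also came in short runs. With neighbours up to 300 bp apart joined, the upper fragment size, the 241 sites formed 188 runs, of which 150 were single sites and 38 held 2 or more (91 sites on 9 chromosomes). Sites in a run can be read from the same fragments and are not independent. Of the 53 neighbouring pairs this close, 35 lay on the same strand. The longest run held 5 sites within 157 bp on chromosome 9, from 60632573 to 60632730. All 5 of its sites passed the Fisher exact test, against 62.1% of the whole list. Input C shares were lower at both ends than between them, with 63.3, 77.1, 77.8, 76.4 and 58.9% in order of position. Labelled library 1 read C in 78.2, 89.5, 93.0, 88.0 and 75.9%, and labelled library 2 in 83.9, 91.2, 93.6, 90.3 and 82.8%. The sites with the lowest input share were also the lowest after labelling. This run had 394 to 872 input reads but 25 to 71 in a labelled library.

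**Figure D4:**
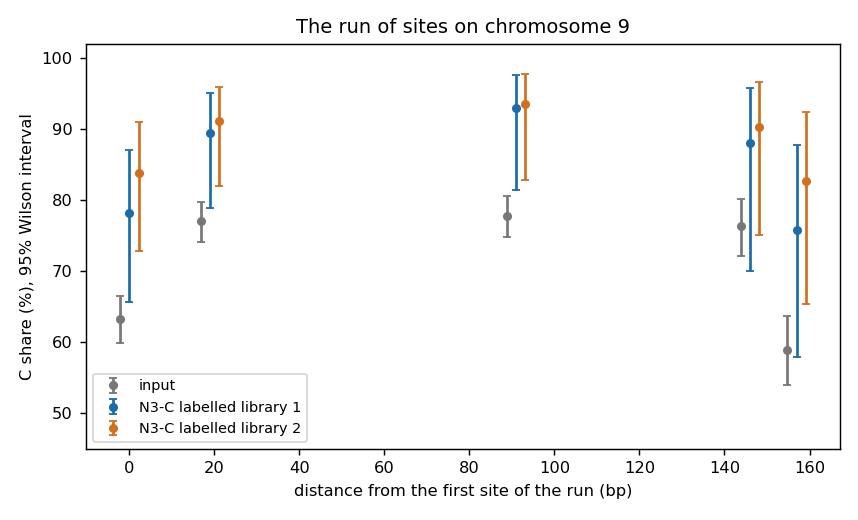
The 5 sites of the run on chromosome 9 are placed by their distance from the first (x axis, bp), with the C share in the input (grey), labelled library 1 (blue) and labelled library 2 (orange) and 95% Wilson intervals, which cover counting error only. Points of a site are shifted sideways by about 2 bp to be seen apart. The first and last sites, at 63.3% and 58.9% in the input, lie below the 3 between them in every library.

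Runs of 4 sites lay on chromosome 1 (143211156 to 143211463) and on chromosome 10 (41855660 to 41855972). In the first all 4 gained 11.05 to 16.4 points and passed (62.1% of the whole list). It holds 143211156, the site where the labelled libraries had an unadjusted Fisher exact p under 0.05 against each other, with 91.1% of 325 reads in library 1 and 95.4% of 348 in library 2. In the second 3 of 4 passed (62.1% of the whole list), with gains of 7.28 to 18.1 points. There were 8 runs of 3 sites, in which 20 of 24 sites passed (62.1% of the whole list) and 5 of which passed at every site. Those named by the rule, which breaks ties by position, were at 143246713 to 143247038 and 143271077 to 143271308 on chromosome 1, among the runs of 3 with the fewest sites past the test. They had 2 and 1 sites past the test, and gains of 6.81 to 14.6 and 8.11 to 25.4 points. In 3 places sites lay within 10 bp of each other, on chromosomes 3, 4 and 9. At 43815337 and 43815342 on chromosome 9, both on the plus strand, the shares went from 67.0% to 90.9% and 91.2% and from 59.2% to 90% and 86.1%.

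The spacing was compared with the alpha satellite monomer. Among 316 pairs of centromeric sites between 20 and 5000 bp apart, 20 (6.33%) had a distance within 5 bp of a multiple of the monomer length. Of all possible distances, 6.43% meet that rule. In the gene-free intervals of chromosomes 5, 7, 16 and 18 the share was 12 of 205 pairs (5.85%), and elsewhere 4 of 103 (3.88%). No surplus at the monomer length was seen, and none of these shares was tested. The pairs pool all windows, including the 54 sites within 88.1 kb on chromosome 1, and repeat class was not analysed. The count therefore cannot say whether sites in alpha satellite keep this spacing. Pairs that share a site are not independent, and divergent or rearranged copies need not keep the length.

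Reads recovered after pull-down varied widely among the centromeric sites. The labelled libraries together held 0.341 reads per input read in the median, with quartiles of 0.251 and 0.506 and a range of 0.0577 to 1.4. Over the whole list the median was 0.385, in the gene-free intervals of chromosomes 5, 7, 16 and 18 it was 0.336, and elsewhere 0.443. The ratio compares sites within these libraries and is no absolute enrichment, as the total reads of the libraries were not used here. With at least 20 reads in each labelled library, a shallow site cannot have a low ratio. At sites with 100 to 200 input reads the medians were 0.395, 0.423 and 0.416 for these centromeric sites, the gene-free intervals and elsewhere, and at 400 input reads or more 0.315, 0.221 and 0.278.

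The long-arm side of chromosome 1 combined deep sites with many labelled reads per input read. Its 54 sites had a median of 0.447 labelled reads per input read, against 0.311 at the other 187 centromeric sites, which include 17 of the same window; the difference was not tested. Without the whole chromosome 1 window the median of the windows was 0.310. Windows with a median input depth under 261 reads lay on either side of the 0.341 of all centromeric sites. The ratio was 0.632 on chromosome 17, 0.536 on chromosome 11, 0.363 on chromosome 4 and 0.458 at the only site of chromosome 6. It was 0.315 on chromosome 2 and 0.294 on chromosome 12. Chromosome 9 had 0.192 and its long-arm stretch 0.171. Examples picked after the values were seen show the span. At 143265593 on chromosome 1, 5043 input reads stood beside 2121 and 2260 labelled reads. At 37264698 on chromosome 12, 3596 input reads stood beside 151 and 127. At 41840837 on chromosome 10, 1819 stood beside 50 and 55, the lowest ratio. The labelled libraries gave close numbers in each case.

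At the sites of lowest recovery the gains lay on either side of the median of 15.1 points. The site on chromosome 12 rose by 10.96 points, from 71.1% (69.5 to 72.6) to 81.7% and 82.4% C (adjusted Fisher exact p = 0.000519). The one on chromosome 10 rose by 17.5 points, from 66.5% (64.2 to 68.8) to 85.1% and 83.0% (adjusted Fisher exact p = 0.000811). Input and labelled depth had a Spearman rho of 0.774 and Pearson's r of 0.906 over the 241 sites. On the long-arm side of chromosome 1 the rho was 0.925 over 54 sites. These are correlations across sites of the same libraries and describe depth.

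**Figure D5:**
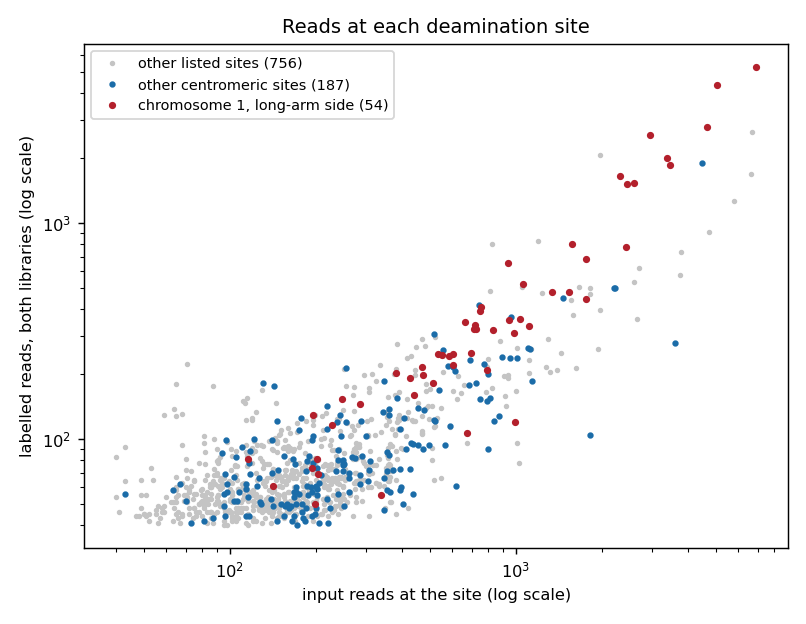
Labelled reads over both libraries (y axis, log scale) are plotted against input reads (x axis, log scale) for each listed deamination site. The 54 sites on the long-arm side of chromosome 1 (red) have a median of 0.447 labelled reads per input read and the 187 other centromeric sites (blue) one of 0.311; the other listed sites are grey.

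Bases other than C and T made up 2.70% of the input reads at centromeric sites (95% Wilson interval 2.62 to 2.79, 137939 reads), 1.52% in labelled library 1 (1.38 to 1.67, 27980 reads) and 1.44% in labelled library 2 (1.31 to 1.58, 29388 reads). The intervals of the labelled libraries lie below that of the input. They count reads as independent, although sites of a run share fragments. The input was also the highest of the 3 in the gene-free intervals of chromosomes 5, 7, 16 and 18 (2.15%, 1.46% and 1.58%) and elsewhere (2.93%, 1.74% and 2.07%). The highest share at a centromeric site, picked after the values were seen, was 24.6% of 118 input reads at 49513098 on chromosome 4, where labelled library 1 had 0 of 39 reads, which allows a share of up to 7.69%, and labelled library 2 had 6.67% of 30.

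Misincorporation sites, which the authors listed apart for deoxyuridine built in opposite A and where the input reads mostly T, shared these windows. Of 67 listed, 25 (37.3%) lay in them, against 24.2% of the deamination sites, and the difference was not tested. The gene-free intervals of chromosomes 5, 7, 16 and 18 held 19 of the 67, beside 260 of the 997 deamination sites. Of the 25 in the windows chromosome 1 held 13, chromosomes 4 and 10 held 4 each, chromosome 12 held 2, and chromosomes 9 and 19 held 1 each. The 25 lay a median of 383 bp from the nearest deamination site in the same window (11 to 249667 bp), and 16 of them within 500 bp. The deamination sites were themselves gathered in stretches, and no background distance was computed. The median C share of the 25 misincorporation sites was 15.1% in the input, 30.2% in library 1 and 29.0% in library 2. Their gain of 15.1 points compares with 15.2 points at the 42 misincorporation sites outside the windows, while their input depth was 369 reads against 211.5 in the median.

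The following examples were picked for their closeness after the values were seen. On chromosome 4 a misincorporation site at 50676641 lay 11 bp from the deamination site at 50676630, on the other strand. The deamination site read C in 53.3% of the C and T reads in the input (180 reads), 79.2% in library 1 (24 reads) and 83.8% in library 2 (37 reads). The misincorporation site's C share was 10.3% of 204 input reads, 27.6% of 29 reads in library 1 and 23.3% of 43 reads in library 2. A further one at 50676669 lay 39 bp away, with 14.6%, 25% and 21.8%. On chromosome 9 a misincorporation site at 60632377 lay 196 bp before the run of 5 deamination sites, with 13.9% of 317 input reads and 31.8% and 26.7% in the labelled libraries.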

How the data were processed

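Genomic DNA of HEK293T cells was sequenced in 2 N3-C labelled libraries and 1 input. The authors deposited, per the file headers, counts of all reads, C reads and T reads at each listed position, the percent of C and of T in each library, and a p-value. The submitters' processing notes name Trim Galore and Bowtie2 without versions; the sources used here give no build, base caller, duplicate handling or listing rule. GRCh38 was inferred: a listed chromosome 17 position, 82359862, lies beyond that chromosome's end in GRCh37. The deposited C percent equalled C over all reads within 0.006 points in all libraries at 241 of 241 sites, but the T percent differed in the input at 104, so shares were computed from the counts. The deposited p-values were not used.

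Sites were assigned to windows by position. Each Fisher exact test (scipy 1.17.1, Python 3.11.15) was adjusted by Benjamini-Hochberg over all 997 sites, and the script was tested on simulated data. Intervals are 95% Wilson intervals; these and the limit from 3 counts cover counting error only, as no molecular identifiers are named. Genes came from RefSeq's GRCh38.p14 table of gene positions. Windows, set sizes and tests were chosen with earlier results of these data known. Sites were named by rule: per window the site with most labelled reads, the 5 lowest p, the 5 largest and 5 smallest gains, sites without T reads, those at window edges, sites in genes and the 5 runs with most sites (coding genes nearest the windows were left out, as no result concerns them); others are said to be picked after seeing values. Alternatives covered each labelled library alone, other denominators, thresholds, tests, depth minimums, window edges and joining distances.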

Additional observations from a re-analysis of the deposited data

How the results depend on the processing

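Of 31 alternatives computed for the centromeric sites, 25 stayed within 1.5 times a count or within the spread of the value and 6 moved; 0 turned a direction. With 1 labelled library left out, 92 to 111 sites passed in place of 185, with fewer labelled reads in the test, and the median gain was 14.3 to 14.9 points. Without the chromosome 1 window the median input depth was 218.5 reads in place of 261, and labelled reads per input read 0.310 in place of 0.341. Among the alternatives chosen after seeing the data, the median gain was 11.6 points at the 58 sites with 200 or more labelled reads, and labelled reads per input read 0.307 at the 156 sites with 200 or more input reads. No paired analysis was possible because both labelled libraries are set against the same single input library. With 1 input and the labelled libraries taken as 1 sample, no test reaches beyond these libraries. The list's own choice of sites, repeat copies and mapping bear on each share and could not be examined here.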
